A study of Solanum lycopersicum with 12 samples.

Results

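The tomato beta-galactosidases TBG1, TBG2, TBG3, TBG4, TBG5, TBG6 and TBG7 were read in leaves of plants given salt, the activator Alethea, both or neither. They are the 7 probe sets, of 10209 on the array, whose annotated gene symbol starts with TBG. All 7 gene IDs were found in a RefSeq gene table of tomato under the same symbol, and 0 of the 7 genes is the direct neighbour of another. Each gene is represented by 1 probe set, so a level can be compared between arrays but not between genes.

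Seedlings of the cultivar Ailsa Craig, 4 weeks old, were sprayed with water or with Alethea, a mixture of potassium dihydrojasmonate, sodium benzoate and L-arginine with nutrients that was diluted in 99 parts of water to 1 part. A day later the pots were watered with water or with 100 mM NaCl, and leaf 3 was taken 24 h after the salt and 48 h after the spray. The 4 groups are named by spray and then by watering: WW (water, water), WS (water, salt), AW (Alethea, water) and AS (Alethea, salt). Each group had 3 arrays with a replicate number, and the experiment was carried out on 3 occasions. The replicate number was taken here as the occasion, which the sample labels do not state. Each array holds RNA pooled from 3 plants, so the spread between arrays is one between pools. All values are the authors' GCRMA values on the log2 scale, on which 1 unit is a doubling.

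Beta-galactosidases of this family belong to glycoside hydrolase family 35 and remove galactose from the ends of cell wall polysaccharides, chiefly the galactan side chains of pectin. They are best known from tomato fruit, where walls lose galactose as the fruit softens. Leaf cell walls hold pectin as well. TBG4 is the enzyme long called beta-galactosidase II of ripening fruit, and fruit in which it was suppressed stayed firmer. TBG6 is known from growing green fruit, and TBG7 carries a predicted plastid targeting peptide.

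The defining leaf and ripe fruit genes were read on every array. The chlorophyll a/b binding protein genes CAB4, CAB5 and CAB6A lay between 14.46 and 15.31 on all 12 arrays, while the 4 ripe fruit markers PG2, E8, ACS2 and 2A11 lay between 1.72 and 2.60, and none of these 4 passed the filter. Array medians were 7.66 to 7.76. The hybridisation controls were brightest on the WW and WS arrays of occasion 2 (means of 12.47 and 12.41, against 10.79 to 11.69 elsewhere). For the actin control, the excess of the 3′ over the 5′ probe set, a sign of RNA quality, was higher after Alethea in 6 of 6 pairs (mean 0.65, SD 0.41), and that of GAPDH by 0.16 (SD 0.09) in 6 of 6. With salt these differences moved by 0.06 and 0.04, and were higher in 2 and 3 of 6 pairs.

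TBG3 read lowest in the untreated plants, and salt or Alethea alone each came with a value about 1 log2 unit higher. Its 3 WW arrays read 5.70, 7.02 and 6.41 in occasions 1, 2 and 3. The WS arrays read 7.39, 7.53 and 7.36, the AW arrays 6.52, 7.94 and 7.56, and the AS arrays 6.72, 7.75 and 7.78. In each occasion the WW array was thus the lowest of the 4. Group means were 6.38 in WW (SD 0.66), 7.34 in AW (SD 0.73), 7.42 in AS (SD 0.60) and 7.43 in WS (SD 0.09), and the last 3 differed from each other by no more than 0.09, the smallest of these SDs. The WS arrays all stood above the WW arrays without overlap, as 2.74 percent of the 7779 probe sets kept by the filter did. TBG3 was the one member to do so.

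**Figure D1:**
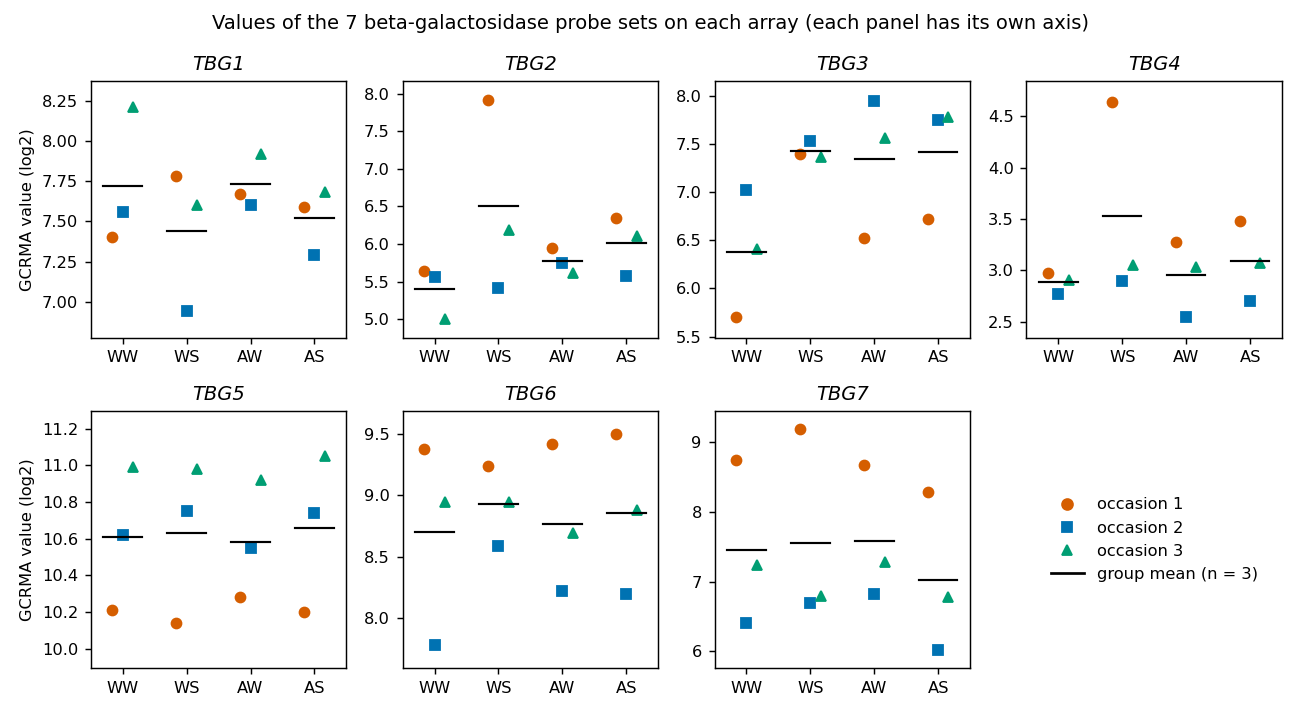
GCRMA value (log2 units, a separate vertical axis for each gene) of the 7 beta-galactosidase probe sets on each of 12 arrays, by group, with a symbol for each occasion and a line at the mean of 3 arrays. TBG3 is lowest in WW in every occasion, the WS array of occasion 1 stands high for TBG2 and TBG4, and occasion 1 is set apart for TBG5, TBG6 and TBG7.

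With salt and without Alethea (WS minus WW) TBG3 read higher in 3 of 3 occasions, by 1.68, 0.51 and 0.95 log2 units. The mean difference was 1.05 (SE 0.24, 95 percent interval 0.50 to 1.60), or 2.07-fold. By limma, with the occasion as a block, its unadjusted p was 0.00202 and its adjusted p 0.291 over all probe sets, so it was not called. After Alethea (AS minus AW) the differences were 0.20, -0.19 and 0.22, with a mean of 0.08 (interval -0.47 to 0.62, limma adjusted p = 0.995). The salted plants thus had no common direction once Alethea had been given. Alethea without salt (AW minus WW) gave 0.82, 0.92 and 1.15, a mean of 0.96 (SE 0.24, interval 0.41 to 1.51, limma adjusted p = 0.297). Alethea under salt (AS minus WS) gave -0.67, 0.22 and 0.42, a mean of -0.01. The WS minus WW and AW minus WW differences share the WW arrays, and the same low WW values enter both. The interaction, which is the salt difference after Alethea minus that without it, was -0.97 (SE 0.34, interval -1.75 to -0.20, unadjusted p = 0.0197, limma adjusted p = 1.0). Without the WS array of occasion 1 it was -0.63, and the salt difference without Alethea was 0.70, which was not called either.

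TBG2 had its highest mean in the salted plants without Alethea, and 1 array decided that place. Its WW arrays read 5.64, 5.56 and 5.0 and its WS arrays 7.92, 5.42 and 6.18. The AW arrays read 5.94, 5.75 and 5.61 and the AS arrays 6.35, 5.57 and 6.10. The WS array of occasion 1 was the highest of the 12, and the other 11 lay between 5.0 and 6.35. Without it the WS mean was 5.80, below the AS mean of 6.01. Group means were 5.4 in WW (SD 0.34), 5.77 in AW (SD 0.16), 6.01 in AS (SD 0.40) and 6.51 in WS (SD 1.28), of which WW and AW differed by 0.37, just beyond their SDs, and the other neighbours by less than the larger SD of the pair. The WS minus WW differences were 2.28, -0.14 and 1.18, with a mean of 1.11 (SE 0.41, interval 0.17 to 2.04, limma adjusted p = 0.42). Without the WS array of occasion 1 the mean was 0.52 (limma adjusted p = 0.73). After Alethea the salt differences were 0.41, -0.19 and 0.49, with a mean of 0.24 (interval -0.70 to 1.17). The interaction of -0.87 (interval -2.19 to 0.45) became -0.29 without that array.

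TBG4, the ripening enzyme, read near the floor of the filter in leaves. Only probe sets with a group mean above 3.2 were tested, and TBG4 was among them through the WS mean of 3.53 (SD 0.96) alone. Its WW arrays read 2.98, 2.77 and 2.91, and its WS arrays 4.64, 2.90 and 3.05. The AW arrays read 3.28, 2.55 and 3.03, and the AS arrays 3.48, 2.70 and 3.07. The WS array of occasion 1 was again the highest, above a range of 2.55 to 3.48 in the other 11, and without it the WS mean was 2.97. Salted plants read higher than their partners in 6 of 6 pairs, by 1.65, 0.13 and 0.14 without Alethea and by 0.20, 0.15 and 0.04 after it. The salt effect, the mean over both sprays, was 0.38 (interval -0.06 to 0.83, limma adjusted p = 0.421), and without the WS array of occasion 1 it was 0.18 (limma adjusted p = 0.536). With that array gone the filter drops TBG4, so these values without it come from a fit, added after the data were seen, that kept the probe sets chosen over all 12 arrays.

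**Figure D2:**
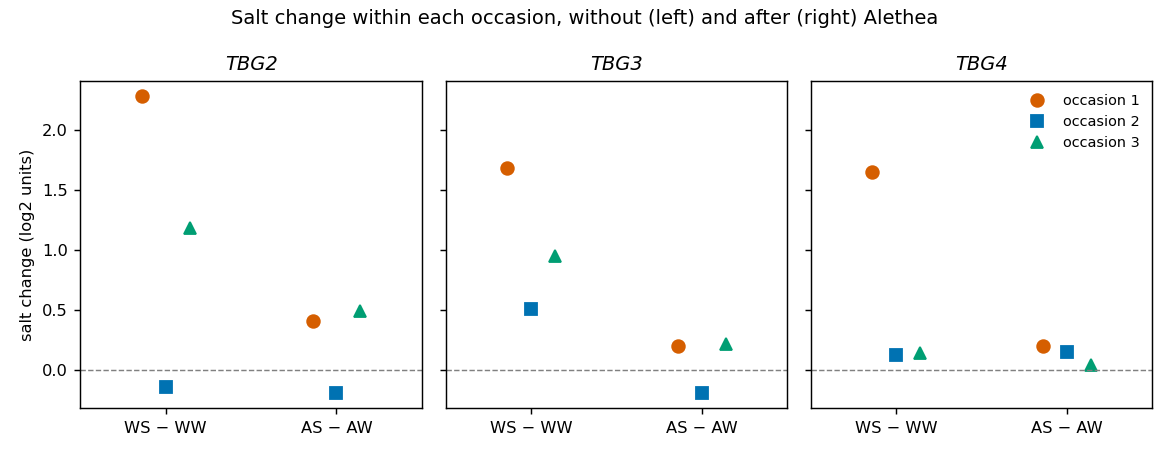
Salt difference (log2 units) of TBG2, TBG3 and TBG4 in each of 3 occasions, without Alethea (WS minus WW) and after Alethea (AS minus AW), with a dashed line at 0. In occasion 1 all 3 genes lie above 1.6 without Alethea and between 0.20 and 0.41 after it.

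These 3 genes were the members with a WS minus WW difference above 1 log2 unit in occasion 1, 3 of 7 against 1.94 percent of all probe sets kept. In occasion 2 the count was 0 of 7, beside 1.84 percent of all, and in occasion 3 it was 1 of 7, beside 1.47 percent. On the WS array of occasion 1 the actin difference was 0.54, beside 0.85, 0.94 and 1.72 on the WW, AW and AS arrays of that occasion. The WS array of occasion 2 read 0.54 as well. Its GAPDH difference in occasion 1 was 0.36, beside 0.38, 0.45 and 0.61 on the WW, AW and AS arrays. The hybridisation mean was 11.40 and the median 7.73. The part of these controls in the values was not tested. The WS array of occasion 1 was the highest for TBG7 too, at 9.19 beside 8.29 to 8.75 in the rest of occasion 1. For TBG5 it was the lowest, at 10.14 beside 10.20 to 10.28. TBG4 entered the count through a filter that it passed because of this array, so its place there is in part fixed by the filter.

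TBG7, the member with the predicted plastid peptide, read lowest in the plants given both treatments. In occasions 1, 2 and 3 its WW arrays read 8.75, 6.40 and 7.24, and its WS arrays 9.19, 6.69 and 6.80. The AW arrays read 8.68, 6.82 and 7.28, and the AS arrays 8.29, 6.02 and 6.78. The AS array was the lowest of its occasion in 3 of 3, in occasion 3 at -0.01 from the WS array, although the groups overlapped across occasions. Salt after Alethea gave differences of -0.39, -0.81 and -0.49, with a mean of -0.57 (SE 0.19, interval -1.01 to -0.12, unadjusted p = 0.0181, limma adjusted p = 0.926). Without Alethea the mean salt difference was 0.10 (interval -0.35 to 0.54), and the interaction was -0.66 (interval -1.29 to -0.03, unadjusted p = 0.0408, limma adjusted p = 1.0). Alethea under salt gave -0.53 (interval -0.97 to -0.09, limma adjusted p = 0.159), and -0.32 without the WS array of occasion 1 (limma adjusted p = 0.381), a comparison that shares the AS arrays with the one of salt after Alethea. Group means were 7.03 in AS, 7.46 in WW, 7.56 in WS and 7.59 in AW, with SDs of 0.97 to 1.42.

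TBG1 lay within a range of 1.27 log2 units over the 12 arrays. Its WW arrays read 7.40, 7.56 and 8.21, and its WS arrays 7.78, 6.94 and 7.60. The AW arrays read 7.67, 7.60 and 7.92, and the AS arrays 7.59, 7.29 and 7.68. Salted plants read lower in 5 of 6 pairs, the exception being occasion 1 without Alethea (0.38). The salt effect was -0.25 (SE 0.14, interval -0.55 to 0.06, limma adjusted p = 0.458), and the Alethea effect was 0.05 (interval -0.26 to 0.35). The salt effect was -0.16 without the WS array of occasion 2 and -0.17 without the WW array of occasion 3. The group means were 7.44 in WS (SD 0.44), 7.52 in AS (SD 0.20), 7.72 in WW (SD 0.43) and 7.73 in AW (SD 0.17). AS and WW, neighbours in this order, differed by less than the SD of WW, and AS minus AW was -0.21 (interval -0.64 to 0.23).

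TBG5 gave the tightest estimates of the family. The enzyme is known to release galactose from galactan, as TBG4 does. Its WW arrays read 10.21, 10.62 and 10.99, and its WS arrays 10.14, 10.75 and 10.98. The AW arrays read 10.28, 10.55 and 10.92, and the AS arrays 10.20, 10.74 and 11.05. Within an occasion the 4 arrays spanned little, and group means were 10.58 to 10.66. The salt effect was 0.05 with an interval of -0.10 to 0.21, and the Alethea effect 0.01 with an interval of -0.15 to 0.16, so that mean changes above 0.21 log2 units lay outside both intervals.

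TBG6, the enzyme of growing fruit, had treatment effects whose intervals included 0. Its WW arrays read 9.38, 7.78 and 8.95, and its WS arrays 9.24, 8.59 and 8.95. The AW arrays read 9.42, 8.22 and 8.69, and the AS arrays 9.50, 8.20 and 8.88. Occasion 1 was the highest and occasion 2 the lowest in all 4 groups. The salt effect was 0.15 (interval -0.13 to 0.44, limma adjusted p = 0.631, and 0.05 to 0.24 with 1 array left out, lowest without the WW array of occasion 2) and the Alethea effect 0.00 (interval -0.28 to 0.28, limma adjusted p = 0.999). Group means were 8.70 in WW, 8.77 in AW, 8.86 in AS and 8.93 in WS, with SDs of 0.33 to 0.82.

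Across the treatments, limma called 0 of the 7 members. For the salt effect 0 of 7 were called, where 0.0386 percent of all probe sets kept were, and TBG2 and TBG3 had an unadjusted p under 0.05, as 14.0 percent of all did. The median change of the members was 0.15 log2 units, with TBG4 included, and that of all probe sets 0.00. Above 0 lay 5 of 7 members, beside 50.1 percent of all probe sets. TBG4 is among these 5, and it was tested only because of its high WS mean. For salt without Alethea 0 of 7 were called, with a background of 0.0386 percent again. Here TBG2 and TBG3 had an unadjusted p under 0.05, as 10.5 percent of all did. TBG4 did too, but it was tested only because of its high WS mean, so its p in this comparison carries no weight. The members' median was 0.22, with TBG4 included. For salt after Alethea 0 of 7 were called and 0 percent of all, with TBG7 alone under 0.05 unadjusted beside 4.97 percent of all. Rank Product, the method used in the study, was also run, here in separate code. It took the 6 pairs of arrays of each factor, each pair from 1 occasion. The 6 pairs come from 3 occasions and were treated as independent. The study ran it in other software on its own paired comparisons, so a call here is not a call of the study. It called 2.97 percent of all probe sets for salt and, of the members, TBG2 as higher (false discovery rate 0.0358). TBG3 followed at 0.0998. The TBG2 salt effect was 0.67 (SE 0.29, interval 0.01 to 1.33, limma adjusted p = 0.347), higher in 4 of 6 pairs, and 0.38 without the WS array of occasion 1 (limma adjusted p = 0.47).

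For the Alethea effect 0 of 7 were called, where 8.18 percent of all probe sets were. TBG3 came nearest, with 0.48 (SE 0.17, interval 0.09 to 0.86, limma adjusted p = 0.0993, higher in 5 of 6 pairs). It had an unadjusted p under 0.05, as 31.9 percent of all probe sets did, and the members' median was 0.00. With occasion 1 left out the TBG3 effect was 0.68 and was called (limma adjusted p = 0.048). Without the WS array of occasion 1 it was 0.65 (limma adjusted p = 0.0504). The part of the actin and GAPDH differences that moved with Alethea in these values was not tested. By Rank Product 0 of 7 were called, where 4.77 percent of all were, and TBG3 had a false discovery rate of 0.0965. Without salt and under salt 0 of 7 were called and 0 percent of all, with 1 member each at an unadjusted p under 0.05 (TBG3 and TBG7), beside 12.7 and 23.4 percent of all. For the interaction 0 of 7 were called and 0 percent of all, and TBG3 and TBG7 were under 0.05 unadjusted beside 2.17 percent of all. The Alethea effect of occasions 2 and 3 minus that of occasion 1 was called for 0 of 7, where 1.36 percent of all were, with 0 members under 0.05 unadjusted beside 15.4 percent of all. Rank Product was not run for the comparisons of single groups, the interaction or the occasions.

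**Figure D3:**
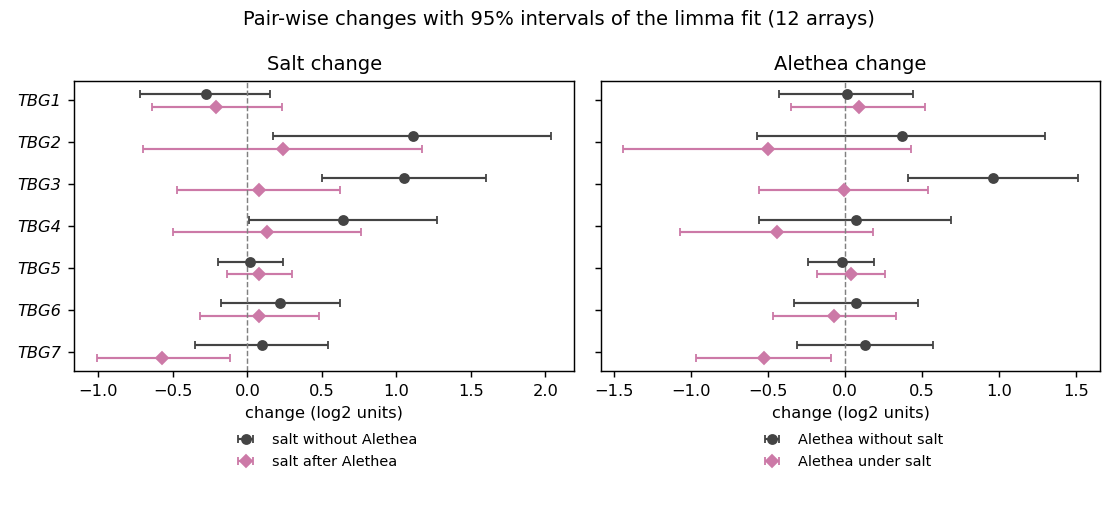
Mean differences (log2 units) with 95 percent intervals from limma for the 7 genes, for salt without and after Alethea on the left and for Alethea without and under salt on the right, with a dashed line at 0. The interval of TBG3 lies above 0 for salt without Alethea (0.50 to 1.60) and for Alethea without salt (0.41 to 1.51), and those of TBG5 are the narrowest. For salt without Alethea, TBG2 (0.17 to 2.04) and TBG4 (0.01 to 1.27) lie above 0 as well. TBG7 lies below 0 for salt after Alethea (-1.01 to -0.12) and Alethea under salt (-0.97 to -0.09). The intervals are not adjusted for the number of probe sets, and limma called none of these differences.

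For each member the share of the variation between occasions was larger than that on salt or that on Alethea, each taken singly. These shares are not divided by degrees of freedom. The occasions hold more of these than salt or Alethea does, and fewer than salt, Alethea and the interaction together. The share of the sum of squares that lay between occasions was 96.3 percent for TBG5, 91.5 percent for TBG7 and 87.6 percent for TBG6. For TBG4, TBG1, TBG3 and TBG2 it was 48.7, 46.6, 40.2 and 30.7 percent. The median over all probe sets kept was 51.5 percent, and 51.8 percent of them had more than 50 percent between occasions, as 3 of 7 members did. TBG3 had 18.9 percent on salt, 13.5 percent on Alethea and 14.1 percent on the interaction, beside medians of 3.0, 8.2 and 1.0 percent over all probe sets. Its residual of 13.3 percent compared with a median of 21.0 percent. Salt, Alethea and the interaction together held more than the occasions did for TBG3. The same was true of TBG2, with 23.3, 0.2 and 9.7 percent, over arrays that include the high WS array of occasion 1. Without that array the TBG2 salt effect was 0.38 in place of 0.67, and the interaction -0.29 in place of -0.87. The shares were not computed without it.

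**Figure D4:**
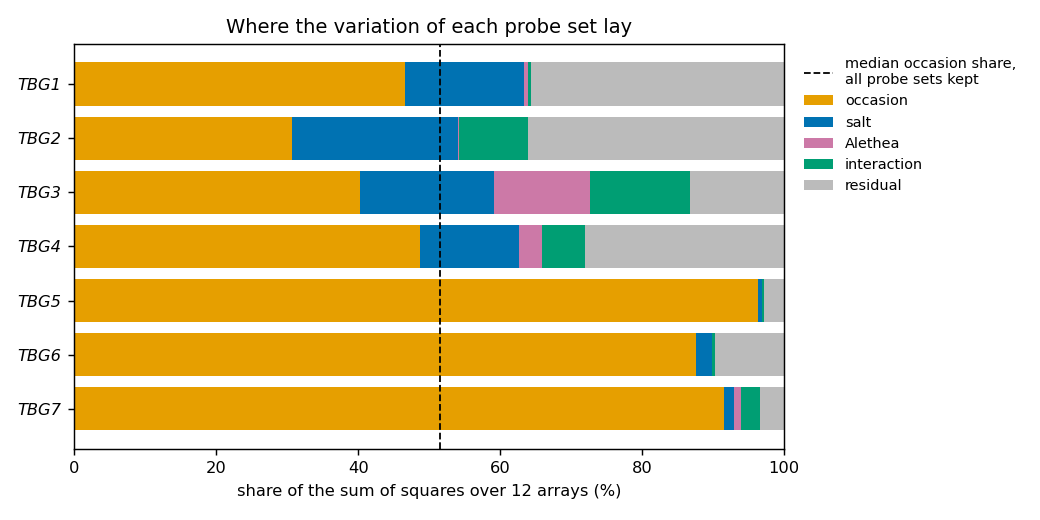
Share of the sum of squares over 12 arrays (percent) that lay between occasions, on salt, on Alethea, on their interaction and in the residual, for each of the 7 genes. The dashed line marks the median share between occasions over all probe sets kept, 51.5 percent, which TBG5, TBG6 and TBG7 exceed.

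Between occasion 1 and the mean of occasions 2 and 3, limma called 5 of 7 members, where 52.1 percent of all probe sets were called. TBG7 was higher in occasion 1 by 1.97 log2 units (SE 0.15, interval 1.64 to 2.31), or 3.93-fold, with a limma adjusted p of 1.43e-05. Its 4 arrays of occasion 1 read 8.29 to 9.19, those of occasion 2 read 6.02 to 6.82 and those of occasion 3 read 6.78 to 7.28, so that every array of occasion 1 stood above every other. TBG6 was higher by 0.85 (SE 0.13, limma adjusted p = 0.00076), with occasion 1 at 9.24 to 9.50, occasion 2 at 7.78 to 8.59 and occasion 3 at 8.69 to 8.95. TBG4 was higher by 0.72 (SE 0.21, limma adjusted p = 0.0171), and by 0.41 (SE 0.11, limma adjusted p = 0.0207) without the WS array of occasion 1, in the added fit described for the salt effect. TBG4 passed the filter only through that array, which is of occasion 1. Its place among the 5 members called was thus in part fixed by the filter. The added fit kept the same probe sets, so it does not remove this limit.

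TBG5 and TBG3 ran the other way. TBG5 was lower in occasion 1 by -0.62 (SE 0.07, interval -0.78 to -0.45, limma adjusted p = 0.000156), with occasion 1 at 10.14 to 10.28, occasion 2 at 10.55 to 10.75 and occasion 3 at 10.92 to 11.05. TBG3 was lower by -0.84 (SE 0.18, interval -1.25 to -0.43, limma adjusted p = 0.00454), although its arrays overlapped between occasions. TBG2 gave 0.81 (limma adjusted p = 0.0539), which was 0.37 without the WS array of occasion 1 and was called without the WW array of occasion 2 (0.93, limma adjusted p = 0.0309). TBG1 gave 0.01 (interval -0.31 to 0.34). Arrays of occasion 1 did not overlap the others for TBG5, TBG6 and TBG7, as for 27.8 percent of all probe sets.

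Between occasions 2 and 3, limma called 1 of 7 members, where 4.67 percent of all probe sets were called. TBG6 was lower in occasion 2 by -0.67 (SE 0.15, interval -1.02 to -0.32, limma adjusted p = 0.0454), and the call was lost in 10 of 12 fits with 1 array left out. Over the 12 fits the difference was -0.81 to -0.52 and the limma adjusted p 0.0467 to 0.164. TBG5 gave -0.32 (SE 0.08, limma adjusted p = 0.0649). Arrays of occasion 2 all lay below those of occasion 3 for TBG4, TBG5 and TBG6, as for 7.7 percent of all probe sets. In either direction, occasions 2 and 3 did not overlap for 14.2 percent. The TBG4 arrays read 2.55 to 2.90 in occasion 2 and 2.91 to 3.07 in occasion 3. All of these lie under the filter value of 3.2, which TBG4 passed only through the WS array of occasion 1. What differed between the occasions other than the repeat of the experiment is not given in the sources used here, so growth conditions, plant material and array handling cannot be told apart.

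With the occasion means subtracted, the members fell into no single pattern. The 21 pairs had a Pearson r of -0.58 to 0.87 over 12 arrays, which share the group contrasts and the single WS array of occasion 1, and 11 of the 21 were above 0. TBG2 went with TBG4 (r = 0.87) and with TBG3 (r = 0.81), and TBG3 with TBG4 (r = 0.63). Without the WS array of occasion 1 these were 0.46, 0.78 and 0.44. TBG5 and TBG6 had an r of 0.54, and TBG1 opposed both, at -0.58 and -0.56. Before the occasion means were subtracted, the r of TBG6 and TBG7 was 0.83, and with them subtracted it was -0.07.

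Among 701 other probe sets with a symbol, those most like each member were found in the same way, over 12 arrays with the occasion means subtracted. TBG3 was most like SDH (r = 0.95, and 0.94 without the WS array of occasion 1), followed by LOC543561 and the endoglucanase Cel2 (both 0.89). TBG2 was most like MAPKKKalpha, a kinase of defence signalling (0.92), LOC543561 (0.90) and LOC543969 (0.89). TBG4 was most like LOC543862 (0.93), which was 0.42 without that array, TBG2 (0.87) and LOC544143 (0.86). TBG7 was most like LePIP1 (0.91), the expansin gene EXP5 (0.85) and ACO6 (0.74). TBG5 was most like XTH6 (0.90), a xyloglucan endotransglucosylase, DHQS (0.86) of the shikimate pathway and the phytoene synthase gene PSY2 (0.85). TBG6 was most like the carotenoid cleavage gene CCD1B (0.84), GSH1 (0.76) of glutathione synthesis and AUREA (0.74), which acts in phytochrome chromophore synthesis. TBG1 was most like h52 (0.87) and 2 probe sets of XTH16 (0.82 and 0.80). Before the occasion means were subtracted, some r were far from these. They were -0.80 for TBG7 and ACO6, -0.08 for TBG3 and Cel2, and 0.10 for TBG2 and MAPKKKalpha. Others were high in both forms, such as 0.96 for TBG7 and LePIP1 and 0.88 for TBG5 and PSY2. These values are descriptions over few arrays.

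Other wall enzymes on the array were read from lists of symbols. Of 13 probe sets for other pectin and side-chain enzymes, 3 were kept by the filter. For salt, Alethea and the interaction 0 of 3 were called, with 2, 1 and 0 at an unadjusted p under 0.05. Over all probe sets 14.0, 31.9 and 2.17 percent were under 0.05 unadjusted. PGcat, listed here with the polygalacturonases, gave 0.46 for salt (SE 0.13, limma adjusted p = 0.211) and 0.40 for Alethea (SE 0.13, limma adjusted p = 0.078). It was lower in occasion 1 by -1.73 (limma adjusted p = 2.19e-05), whereas the pectin methylesterase PMEU1 was higher by 0.84 (limma adjusted p = 0.000445). That contrast called 52.1 percent of all probe sets. Of 31 probe sets for expansins, endoglucanases and xyloglucan endotransglucosylases, 26 were kept. For salt 0 of 26 were called, with 7 at an unadjusted p under 0.05, beside 14.0 percent of all, and a median of -0.13. The 7 include several probe sets of a single gene, XTH16 (-0.77, -1.1 and -1.15), so they are not 7 genes. Cel2 is among the 7 too (0.61, SE 0.09, limma adjusted p = 0.0773). For the interaction 0 of 26 were called, and 20 of 26 lay below 0, with a median of -0.19. Only Cel2 (-1.09, SE 0.18) had an unadjusted p under 0.05 there, beside 2.17 percent of all. For Alethea 2 of 26 rose and 1 fell, where 8.18 percent of all probe sets were called, with a median of -0.03. The xyloglucan endotransglucosylases tXET-B2 and XTH3 rose by 2.36 (SE 0.54, limma adjusted p = 0.0412) and 1.15 (SE 0.19, limma adjusted p = 0.0281), and the expansin EXPA4 fell by 0.46 (SE 0.11, limma adjusted p = 0.0443). These Alethea calls depend on the model, since limma called 0 probe sets in all with means per spray and occasion. In occasion 1, 15 of 26 were called higher and 5 lower, in a contrast that called 52.1 percent of all probe sets. The same probe sets of XTH16 are among the 15.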

How the data were processed

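Leaf RNA of 4 groups was hybridised to 12 arrays, and the deposited table holds the authors' log2 values after GCRMA, whose version is not given in the sources used here. The array signals were not used, so background correction and normalisation are the authors'. Gene symbols came from the platform annotation, which names 909 of 10209 probe sets. The 7 members and the lists were chosen with earlier results of these data known. All 7 members were kept by the filter, a mean above 3.2 in at least 1 group, which left 7779 probe sets.

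The test was limma 3.58.1 (lmFit and eBayes, R 4.3.3), in a model of 4 group means plus a block for the occasion. Residual degrees of freedom were 6, or 4 for the Alethea effect by occasion, and prior degrees of freedom 2.63. P-values were adjusted by Benjamini and Hochberg over all probe sets kept, and those under 0.05 are named as called. Rank Product was written in Python 3.11.15 with 1000 permutations and a false discovery rate of 0.05 in each direction. Both tests were tried on simulated data. The members were named by symbol, and for each the 3 probe sets of highest r were named.

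Pairing rests on the occasions that the study's methods describe, and on the assumption that the replicate number of an array is its occasion. Arrays sharing a replicate number deviated from their group means together (r of 0.44 to 0.87, 18 pairs), while the other 36 pairs gave -0.79 to 0.63. The number of arrays limits the precision. Alternatives were the fit without block or filter, another variance prior, centred arrays, means per spray and occasion, and arrays left out. Fits without single arrays for the comparisons of 2 groups, and all alternatives for the occasions, were added after the data were seen.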

Additional observations from a re-analysis of the deposited data

How the results depend on the processing

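No member was called for salt or Alethea by limma under any alternative, except TBG3 for Alethea without occasion 1. Without the replicate block 0 probe sets were called for salt (193 at an unadjusted p under 0.05), 0 for Alethea (924) and 0 for salt without Alethea, against 3, 636 and 3 with it, and no member changed its call. For salt, limma called 6 without the filter, 35 with the trend and robust prior, 5 with centred arrays and 1 without the WW and WS arrays of occasion 2, and Rank Product 231, with 1 member. For Alethea, 0 were called with means per spray and occasion and 0 without those WW and WS arrays, and 371 by Rank Product. Without the filter 0 were called for salt without Alethea, and 55 against 106 for the Alethea effect by occasion. The causes were not tested.

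With an array or occasion left out, probe sets called ranged from 0 to 13 for salt, 0 to 1111 for Alethea, 0 to 2 for salt without Alethea, 0 to 1 for salt after Alethea, 0 to 47 for Alethea without salt and 0 to 19 for Alethea under salt. They ranged from 7 to 104 for the Alethea effect by occasion, 3438 to 4182 for occasion 1 and 18 to 359 for occasion 2 against 3. Members called ranged from 0 to 1 for Alethea, 4 to 6 for occasion 1 and 0 to 1 for occasion 2 against 3.

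Some changes turned sign in these fits, among them larger ones of TBG2 (0.86 for the Alethea effect by occasion and -0.50 for Alethea under salt), and none of them was called. The ranges were -0.01 to 0.11 for TBG5 on salt. For Alethea they were -0.06 to 0.16 for TBG1, -0.31 to 0.22 for TBG2, -0.03 to 0.03 for TBG5 and -0.10 to 0.09 for TBG6. For salt without Alethea they were -0.04 to 0.07 for TBG5, -0.06 to 0.40 for TBG6 and -0.12 to 0.37 for TBG7, and after Alethea -0.01 to 0.46 for TBG2, -0.10 to 0.21 for TBG3 and -0.01 to 0.14 for TBG6. For Alethea without salt they were -0.21 to 0.17 for TBG1, -0.19 to 0.24 for TBG4, -0.10 to 0.03 for TBG5, -0.13 to 0.24 for TBG6 and -0.02 to 0.28 for TBG7. Under salt they were -0.08 to 0.31 for TBG1, -1.0 to 0.08 for TBG2, -0.23 to 0.33 for TBG3, -0.01 to 0.09 for TBG5 and -0.24 to 0.11 for TBG6. For the interaction they were -0.08 to 0.34 for TBG1 and -0.32 to 0.20 for TBG6. For the Alethea effect by occasion they were -0.50 to 0.50 for TBG1, -0.03 to 1.74 for TBG2, -0.21 to 0.03 for TBG5 and -0.49 to 0.05 for TBG6, and between occasions -0.15 to 0.18 for TBG1 (occasion 1) and -0.40 to 0.22 for TBG2 (occasion 2 against 3). TBG1 also turned to -0.03 for Alethea without the WW and WS arrays of occasion 2, and with centred arrays to -0.04 for occasion 1 and 0.00 for the Alethea effect by occasion. Without the WS array of occasion 1, TBG4 turned from -0.19 to 0.02 for Alethea and from 0.36 to -0.40 for the Alethea effect by occasion. Without the filter, TBG5 was called between occasions 2 and 3 (-0.32, limma adjusted p = 0.0341) and TBG6 was not (-0.67, limma adjusted p = 0.0541). TBG4 was kept by the filter in 13 of 15 such fits.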

Other observations

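A pair of probe sets without a symbol on the array, which the additional material of the study describes as beta-galactosidases, lay outside the rule used for the family and were chosen after their values were seen. That material lists probe sets that the study itself called by Rank Product on these same arrays. A call of either one here was thus largely fixed in advance and adds no separate support. The first, described as a beta-galactosidase alpha polypeptide, read 13.20, 12.93 and 12.20 in WW, 13.11, 13.13 and 12.29 in WS, 13.35, 11.56 and 11.25 in AW, and 12.74, 11.42 and 11.10 in AS. Its level fell by 0.91 with Alethea (SE 0.22, limma adjusted p = 0.0453, Rank Product false discovery rate 0.011). The Alethea effect of occasions 2 and 3 minus that of occasion 1 was -1.20 (SE 0.19, limma adjusted p = 0.0442). With means per spray and occasion limma called 0 probe sets for Alethea. The actin and GAPDH differences moved with Alethea too, and their part in this was not tested.

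The other, described as a putative beta-galactosidase, read 12.67, 12.25 and 11.13 in WW, 13.49, 11.65 and 10.18 in WS, 12.76, 11.42 and 11.39 in AW, and 12.58, 10.53 and 10.33 in AS. Its salt effect was -0.48 (SE 0.27, limma adjusted p = 0.469), and Rank Product called it lower (false discovery rate 0.031). It was higher in occasion 1 by 1.77 (SE 0.29, limma adjusted p = 0.000951).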
